A study of Mus musculus with 4 samples.

Results

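Expression of 10 genes that encode NF-κB subunits or their feedback inhibitors was examined in J774.1 cells, a mouse monocyte-macrophage line, after treatment with proteasome inhibitors. The genes were taken by name, as the subunit genes *Nfkb1*, *Nfkb2*, *Rel*, *Rela* and *Relb* and the inhibitor and feedback genes *Nfkbia*, *Nfkbie*, *Nfkbiz*, *Tnfaip3* and *Bcl3*, out of 20144 genes that could be named on the array. Cells were cultured for 4 hours with MG132, epoxomicin or ONX0914 at 1 μM, or with the solvent DMSO as control. MG132 is a peptide aldehyde that blocks the proteasome, epoxomicin is a peptide epoxyketone directed at the 20S proteasome, and ONX0914 is a peptide epoxyketone directed at the β5 and β5i subunits. The treatment label of the ONX0914 sample carries the name ONX-0912, whereas its treatment protocol and the study's methods name ONX0914, which is used here. Each condition was measured on 1 Agilent single-color (Cy3) array, so the data hold no replicate, and no P value is given. Only 1 cell line and 1 time point were measured.

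NF-κB is a family of dimeric transcription factors that drive inflammatory genes in macrophages. In resting cells, the dimers are held in the cytoplasm by IκB proteins, and stimulation leads to phosphorylation, ubiquitination and proteasomal degradation of IκB. The proteasome also trims the precursor proteins of *Nfkb1* and *Nfkb2* to the mature DNA-binding subunits. Several inhibitors of the pathway are themselves NF-κB target genes, which closes a negative feedback loop. The arrays measured RNA, and neither the proteins nor their location in the cell.

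All 10 genes had a probe, and 12 probes covered them, with a pair of probes each for *Nfkb1* and *Relb*. A signal is the spot's brightness after the scanner software removed its local background, and the software marks each signal as well above background or not. On each array, between 60.1% and 62.8% of spots were well above background, and 0 were saturated. To compare arrays, the log2 signal was reduced by its array's 75th percentile, which was a signal of 1448 with MG132 and between 1603 and 1669 on the other arrays. A difference from DMSO is therefore on the log2 scale, where 1 stands for 2-fold, and it can rank arrays otherwise than the unscaled signals do. The software's own error estimate was about 10.0% of each signal for the genes measured on all arrays, or 0.20 on the log2 scale for a difference. It was nearly the same at every signal, 10.1% at most, and so serves as a fixed yardstick. The median SD between spots of a probe printed 10 times was 0.055 to 0.061 by array, or 0.087 at most for a difference. The software's estimate covers the reading of 1 spot and not the spread between cultures. Of the 9 macrophage markers with a named probe, 8 were well above background on all arrays, *Mrc1* on none. Their summed signal, not scaled between arrays, ran from 273746 with MG132 to 355910 with DMSO. The largest parts of the DMSO sum were *Csf1r* (210824) and *Cd14* (109365). The markers did not move together: *Spi1*, a transcription factor gene of myeloid cells, had a signal of 1081 in DMSO against 664 (MG132), 558 (epoxomicin) and 1112 (ONX0914), and *Itgam*, an integrin gene, one of 20753 against 23265, 20351 and 16593. Of 4 T cell markers, *Cd4* and *Cd3e* were well above background on all arrays and *Cd3g* and *Cd8a* on none. The 3 B cell markers were so on no array. Of the fibroblast markers, *Col1a2* was so on all arrays, *Pdgfra* on 1 and *Col1a1* on none. Of the epithelial markers, *Krt8* was so on 2 arrays, *Krt18* on 1 and *Epcam* on none. Summed signals, again not scaled, ran from 4480 to 5321 for the T cell markers and from 28.0 to 39.4 for the B cell markers. They ran from 97.5 to 136 for the fibroblast markers and from 17.2 to 160 for the epithelial markers, the last being highest with epoxomicin. The part of these markers in the results was not tested. Each sample is RNA of a whole culture of 1 cell line, so a change in all cells and a change in some of them cannot be told apart.

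RefSeq promoter windows were at hand for 7 of the 10 genes, each covering 250 bases before and 50 after an annotated start site of assembly GRCm38.p6. *Nfkb1*, *Relb* and *Nfkbiz* had none. The κB consensus, the 10-base motif bound by NF-κB dimers, was searched on both strands, and 6 of the 7 genes held a match in at least 1 window, with *Rela* as the exception. Among all genes with a window, 2581 of 27025 (9.55%) held a match, and among the 20 NF-κB target genes with a window, 8 did. The windows of 5 genes whose array values are described below are shown from 250 bases before to 20 bases after the start, on the strand of the gene, with matches to the motif in capitals. The *Nfkb2* window is the first of 3.
Nfkb2 (chr19:46304487-46304756, + strand): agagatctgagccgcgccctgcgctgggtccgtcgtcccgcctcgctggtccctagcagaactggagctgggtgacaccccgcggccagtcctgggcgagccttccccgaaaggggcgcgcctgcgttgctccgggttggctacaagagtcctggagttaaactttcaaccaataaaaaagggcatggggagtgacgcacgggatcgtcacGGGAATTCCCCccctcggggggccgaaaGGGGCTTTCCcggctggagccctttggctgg
Nfkbia (chr12:55492628-55492897, - strand): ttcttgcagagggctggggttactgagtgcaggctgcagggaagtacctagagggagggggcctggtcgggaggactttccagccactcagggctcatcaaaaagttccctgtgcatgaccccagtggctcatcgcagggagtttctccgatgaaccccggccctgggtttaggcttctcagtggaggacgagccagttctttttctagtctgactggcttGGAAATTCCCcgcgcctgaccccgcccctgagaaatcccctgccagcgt
Nfkbie (chr17:45555450-45555719, + strand): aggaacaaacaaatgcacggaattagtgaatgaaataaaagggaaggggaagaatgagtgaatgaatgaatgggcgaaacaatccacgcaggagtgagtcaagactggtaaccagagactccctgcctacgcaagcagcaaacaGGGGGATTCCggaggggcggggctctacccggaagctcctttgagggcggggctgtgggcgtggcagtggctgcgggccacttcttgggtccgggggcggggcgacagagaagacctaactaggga
Tnfaip3 (chr10:19015391-19015660, - strand): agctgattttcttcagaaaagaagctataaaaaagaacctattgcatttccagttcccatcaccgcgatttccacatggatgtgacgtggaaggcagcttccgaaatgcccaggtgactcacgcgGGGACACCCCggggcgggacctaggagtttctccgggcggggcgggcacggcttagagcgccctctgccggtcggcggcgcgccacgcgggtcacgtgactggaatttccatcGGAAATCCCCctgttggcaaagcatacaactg
Bcl3 (chr7:19822736-19823005, - strand): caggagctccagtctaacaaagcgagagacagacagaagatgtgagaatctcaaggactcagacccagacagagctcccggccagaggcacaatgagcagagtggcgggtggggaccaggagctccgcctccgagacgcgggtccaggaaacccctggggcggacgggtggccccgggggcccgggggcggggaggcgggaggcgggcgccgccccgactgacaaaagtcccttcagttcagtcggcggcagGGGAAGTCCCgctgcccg

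In *Nfkb2*, the first stretch in capitals joins overlapping matches, one of them a palindrome read on both strands, and a further match begins 11 bases before the start. The match of *Nfkbia* begins 29 bases before the start and lies on the opposite strand, and that of *Nfkbie* begins 106 bases before the start on the strand of the gene. The *Tnfaip3* window held a match 125 bases before the start and another at 12 bases, whereas its other window held none. The match of *Bcl3* begins at the third base of the transcript. *Rel* held overlapping matches that begin 92 and 91 bases before the start. A match is a resemblance in sequence, and binding was not measured.

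**Figure D1:**
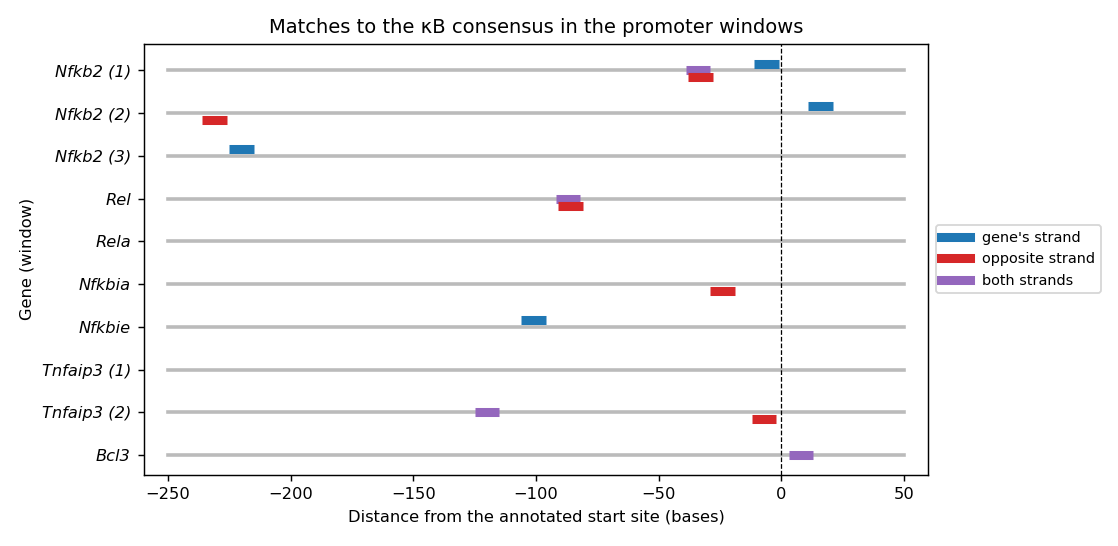
Positions of matches to the κB consensus in the 10 promoter windows of 7 genes. The horizontal axis is the distance in bases from the annotated start site (dashed line), each grey line is 1 window, and colored bars are matches on the gene's strand, the opposite strand or both. Of the 10 windows, 8 hold a match, all but that of *Rela* and 1 of *Tnfaip3*. Over all genes, 2779 of 32851 windows (8.46%) hold one. A pair of *Nfkb2* windows overlaps and shares the site GGGACTTTCC, which is therefore counted in each of them.

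Expression of the subunit genes differed little between DMSO and the inhibitors, with log2 differences from -0.13 to 0.51 among the 4 genes measured on all arrays. *Rela*, which encodes the transactivating subunit of the classical dimer, had a signal of 26184 in DMSO against 22570 (MG132), 27039 (epoxomicin) and 24284 (ONX0914). Its log2 differences were -0.03 (MG132), 0.03 (epoxomicin) and -0.07 (ONX0914), all smaller than the software's error, and the sign of each changed in some settings of the processing. Of the 9 genes measured on all arrays, *Rela* varied least between the inhibitors, and 49.2% of genes lay below it with MG132.

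*Nfkb1* encodes the precursor of the partner subunit of *Rela*. Its brighter probe had a signal of 2351 in DMSO against 2707 (MG132), 2718 (epoxomicin) and 2534 (ONX0914), which corresponds to differences of 0.39, 0.19 and 0.15 in that order of inhibitors. Its other probe, with signals of 1500, 1467, 1878 and 1537, gave differences of 0.15, 0.30 and 0.07. Of these 6 differences, those of the brighter probe with MG132 and of the other with epoxomicin exceeded the software's error, and the probes placed different inhibitors first. Over the alternative settings, the brighter probe ranged from 0.20 to 0.59 with MG132. *Nfkb2*, the corresponding precursor gene of the alternative pathway, had signals of 5853 in DMSO against 5546 (MG132), 5428 (epoxomicin) and 6470 (ONX0914). Its differences of 0.11, -0.13 and 0.18 were within the software's error, and those with MG132 and epoxomicin changed sign under some scalings.

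*Relb*, which encodes the dimer partner of the *Nfkb2* product, was higher than DMSO on each inhibitor array. Its brighter probe had a signal of 2003 in DMSO against 2517 (MG132), 2829 (epoxomicin) and 2374 (ONX0914). The differences were 0.51 (1.43-fold), 0.48 (1.39-fold) and 0.28 (1.22-fold). The other probe, with signals of 1202, 1511, 1636 and 1471, gave 0.52, 0.43 and 0.33, so that both probes placed ONX0914 last. Among all genes measured on the 4 arrays, between 81.8% and 84.5% lay below *Relb*, depending on the inhibitor.

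*Rel*, which encodes c-Rel, a subunit best known from lymphocytes, was close to the background throughout. Its signal was 7.64 with DMSO, 13.3 with MG132 and 18.6 with epoxomicin, none of them well above background, and 24.9 with ONX0914, which was. Set against the lowest signal that was well above background on the DMSO array, 14.7, *Rel* under ONX0914 was at least 1.74-fold higher (a log2 bound of 0.80). Over the 9 alternative settings that gave a value, it ranged from 0.41, under normexp fitted without outlier spots, to 1.75, with the processed signal used in place of the bound. Under normexp fitted on all spots, the bound did not lie above DMSO, so no fold was given. Normexp is a background correction that models spot and background brightness together, and its fit without outlier spots was chosen after seeing the data. No fold was computed for the other inhibitors. The software's error of a *Rel* signal was 18.4% with ONX0914 and 39.6% with DMSO, so this probe allowed no comparison beyond that bound.

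**Figure D2:**
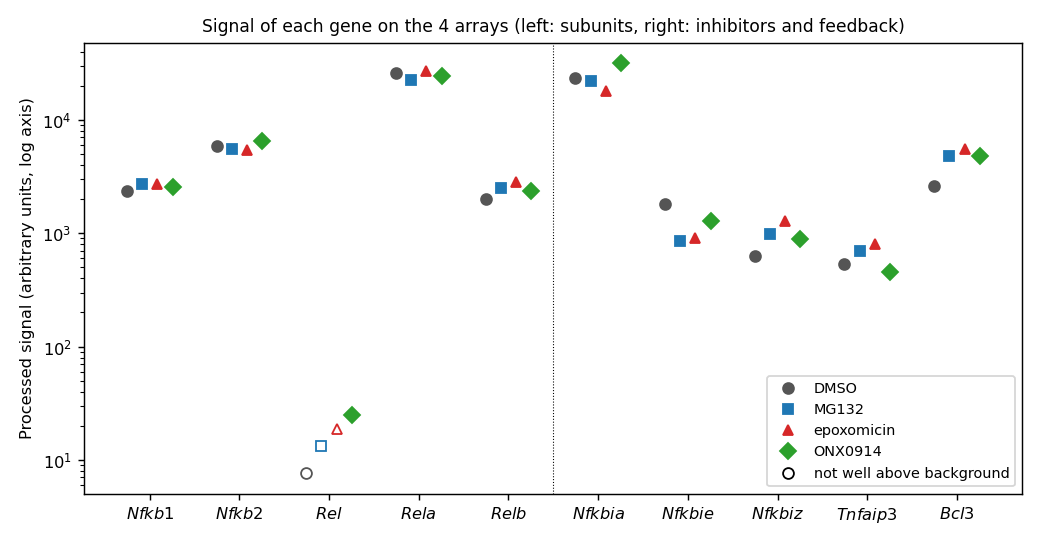
Processed signal of the 10 genes on the 4 arrays. The vertical axis is logarithmic and in arbitrary units, each symbol is 1 array, and open symbols were not well above background, as for *Rel* on 3 arrays. Symbols can be compared within a gene and not between genes, since probes differ in brightness, and signals are shown before the arrays were scaled.

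The inhibitor and feedback genes spread further, from -1.003 to 1.08. *Bcl3*, which encodes a nuclear IκB family protein that acts as a coactivator of p50 and p52 dimers, showed the largest increase among these genes. Its signal was 2595 in DMSO against 4816 (MG132), 5489 (epoxomicin) and 4803 (ONX0914). In the order MG132, epoxomicin and ONX0914, the differences were 1.08 (2.11-fold), 1.06 (2.09-fold) and 0.93 (1.90-fold), so that the inhibitors lay within 0.15 of each other, less than the software's error. Counted from the highest of 12728 genes, *Bcl3* took rank 677 (MG132), 829 (epoxomicin) and 331 (ONX0914). With arrays shifted to their median in place of the 75th percentile, *Bcl3* was below 2-fold with all inhibitors, and without scaling the same held with MG132.

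*Nfkbie*, which encodes IκBε, an inhibitor that retains dimers in the cytoplasm, was lower with each inhibitor. Its signal was 1806 in DMSO against 856 (MG132), 913 (epoxomicin) and 1290 (ONX0914). The differences were -0.89 (1.85-fold lower), -1.003 (2.004-fold lower) and -0.45 (1.36-fold lower), and each exceeded the software's error at least 2 times. Counted from the lowest gene, *Nfkbie* took rank 601 (MG132), 503 (epoxomicin) and 1020 (ONX0914). The decrease with epoxomicin lay at the 2-fold threshold and fell short of it with *Hprt* as the only scaling (-0.84), without scaling (-0.98), under normexp background correction (-0.93) and under normexp fitted without outlier spots (-0.92).

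*Nfkbiz* encodes IκBζ, a nuclear IκB family protein required for a subset of secondary response genes such as *Il6*. Its signal was 631 in DMSO against 976 (MG132), 1271 (epoxomicin) and 882 (ONX0914), all of the inhibitor arrays lying above DMSO. The differences were 0.81 (1.76-fold), 0.99 (1.99-fold) and 0.52 (1.44-fold). With epoxomicin *Nfkbiz* was thus just inside the 2-fold threshold that *Nfkbie* just passed. Between 91.5% and 92.9% of genes lay below *Nfkbiz* on each inhibitor array. With normexp the difference with ONX0914 was 0.24, and in the fit without outlier spots it was 0.48.

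*Nfkbia* encodes IκBα, the prototype IκB protein and a rapidly induced target of NF-κB. Its signal was 23454 in DMSO against 22107 (MG132), 18174 (epoxomicin) and 31678 (ONX0914). MG132 gave a difference of 0.10, epoxomicin one of -0.39 (1.31-fold lower) and ONX0914 one of 0.47 (1.39-fold higher). The inhibitors thus lay on both sides of DMSO, with the value of MG132 within the software's error and of either sign depending on the scaling. Over the alternative settings, the difference with epoxomicin ranged from -0.47 to -0.18, the latter under normexp and within that error. With ONX0914 it ranged from 0.42 to 0.68. *Tnfaip3*, which encodes A20, a ubiquitin-editing enzyme that restrains signaling upstream of the IKK complex, showed another order. Its signal was 538 in DMSO against 697 (MG132), 807 (epoxomicin) and 453 (ONX0914). MG132 and epoxomicin both gave a difference of 0.56 (1.47-fold and 1.48-fold) and ONX0914 one of -0.21, the last of which was about the size of the software's error. Under normexp background correction the differences of *Tnfaip3* were 0.17, 0.21 and -0.54. The fit without outlier spots gave 0.48, 0.51 and -0.24.

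**Figure D3:**
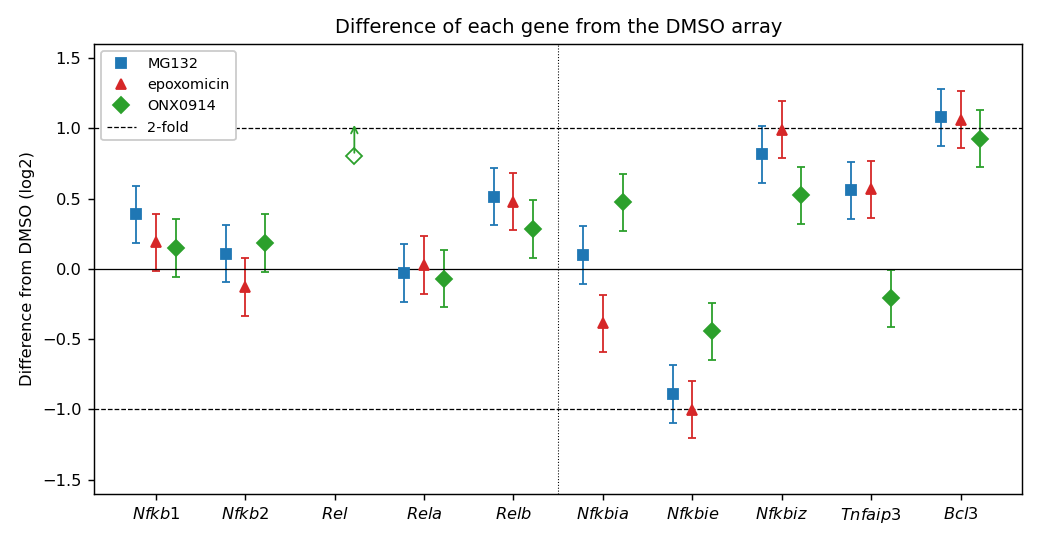
Log2 difference from DMSO of each gene with MG132, epoxomicin and ONX0914. Bars are the scanner software's error of a difference (about 0.20), not a spread between cultures, dashed lines mark 2-fold, and the open symbol with an arrow is the lower bound of *Rel*. *Bcl3* and *Nfkbie* reach a dashed line, and *Nfkb2*, *Rela*, *Nfkbia* and *Tnfaip3* have symbols on both sides of 0.

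By the 2-fold threshold, 1 of the 9 genes compared was higher with MG132, against 7.25% of all genes, and 0 were lower, against 3.69%. With epoxomicin, 1 was higher, against 8.49%, and 1 was lower, against 4.41%. With ONX0914, 0 of 10 genes were higher, against 3.27%, and 0 were lower, against 1.4%. The genes past the threshold were *Bcl3* with MG132 and epoxomicin and *Nfkbie* with epoxomicin. A single gene of 9 is too few to set these counts apart from the share of all genes. Of the 9 genes measured on all arrays, 7 lay within 2-fold with every inhibitor, as did 87.3% of all genes. The median difference of these 9 genes was 0.39 (MG132), 0.19 (epoxomicin) and 0.18 (ONX0914), and that of all genes was -0.02, -0.04 and -0.00. The median size of a difference, whatever its sign, was 0.51, 0.48 and 0.28 for the 9 genes and 0.32, 0.34 and 0.19 for all genes. All 3 comparisons share the DMSO array, so any peculiarity of that array enters each of them.

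Values of the inhibitor arrays were also set against each other, which leaves out the DMSO array. Between epoxomicin and ONX0914, which share the epoxyketone group and were used at the same dose and time, *Nfkbia* and *Tnfaip3* differed most of the 9 genes. *Nfkbia* was 1.82-fold higher with ONX0914 (0.86, with a software error of 0.20), and 6.34% of genes showed a larger difference in either direction. *Tnfaip3* was 1.71-fold lower with ONX0914 than with epoxomicin (-0.78) and 1.70-fold lower than with MG132 (-0.77). For these, 8.26% and 5.72% of genes showed a larger difference. *Nfkbia* and *Tnfaip3* thus placed ONX0914 at opposite ends. *Nfkbie* was 1.47-fold higher (0.56) and *Nfkbiz* 1.38-fold lower (-0.47) with ONX0914 than with epoxomicin, both nearer to DMSO with ONX0914. By their brightest probes, *Nfkb1*, *Rela*, *Relb* and *Bcl3* differed by less than the software's error between these inhibitors, and *Nfkb2* by 0.31. The other probe of *Nfkb1* differed from DMSO by 0.30 with epoxomicin and 0.07 with ONX0914, values further apart than that error. MG132 and epoxomicin, a peptide aldehyde and an epoxyketone, were closer, and *Nfkbia* (-0.49, 3.62% of genes with a larger difference) and *Nfkb2* (-0.24) were the genes that differed by more than the software's error. The median size of the difference between epoxomicin and ONX0914 was 0.31 for the 9 genes and 0.26 for all genes, and between MG132 and epoxomicin it was 0.11 for both. Over the settings of the processing, ONX0914 minus epoxomicin ranged from 0.73 to 0.93 for *Nfkbia* and from -0.91 to -0.70 for *Tnfaip3*, and which of them differed more depended on the scaling. No replicate culture was at hand to show whether such differences exceed the spread between cultures.

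**Figure D4:**
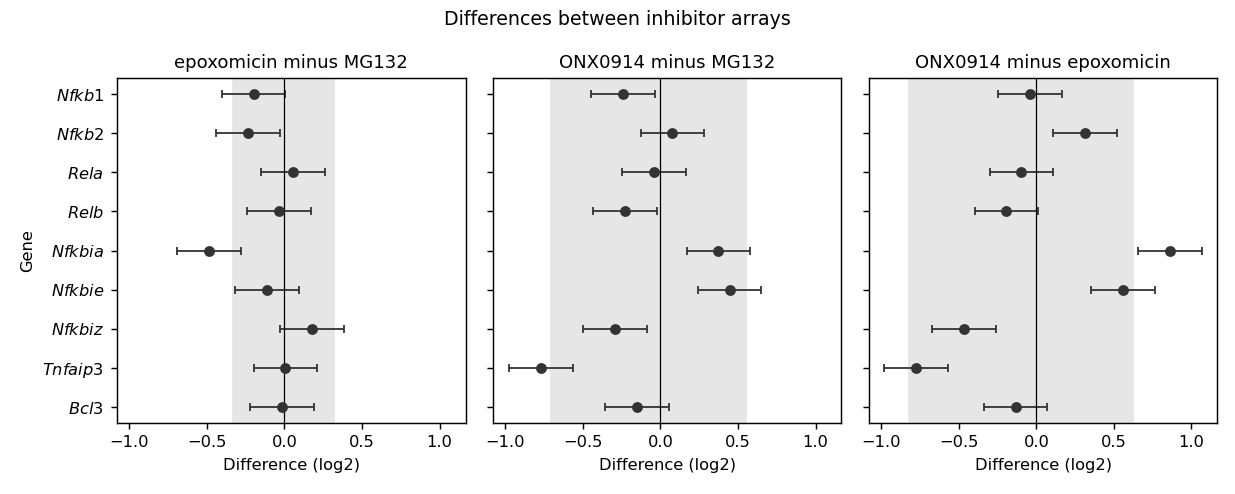
Log2 differences between pairs of inhibitor arrays for the 9 genes measured on all arrays. Bars are the scanner software's error of a difference, and the grey band runs from the 5th to the 95th percentile of all genes measured on the 4 arrays. *Nfkbia* lies outside the band for epoxomicin minus MG132 and for ONX0914 minus epoxomicin, and *Tnfaip3* for ONX0914 minus MG132.

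Other genes of the pathway were described from lists by function. The remaining cytoplasmic and nuclear IκB genes went in different directions. *Nfkbid*, which encodes the nuclear protein IκBNS, had a signal of 5896 in DMSO against 2301 (MG132), 2261 (epoxomicin) and 4328 (ONX0914). It was lower by 2.25-fold with MG132 (-1.17) and 2.64-fold with epoxomicin (-1.40), and the difference with ONX0914 was -0.41. As for *Nfkbie*, the decrease was largest with epoxomicin and smallest with ONX0914. The median size of a difference over all genes took the same order. *Nfkbib*, which encodes IκBβ, differed by 0.55, 0.32 and 0.39 by its brightest probe. Its other probes gave 0.48, 0.25 and 0.44, and 0.98, 0.76 and 0.70. The lists of kinases, adaptors, other negative regulators and ligase genes below hold between 5 and 14 genes. By the brightest probes, at most 1 gene of a list passed 2-fold with any inhibitor. Among all genes, in the order MG132, epoxomicin and ONX0914, 7.25%, 8.49% and 3.27% were higher and 3.69%, 4.41% and 1.4% lower. So few genes cannot be set apart from these shares, and nothing is read from the counts about the lists. Upstream of IκB, 0 of 12 genes for IKK subunits and upstream kinases passed 2-fold with MG132 or ONX0914 by their brightest probes. With epoxomicin 1 did, *Ripk1*, a kinase gene of the TNF receptor complex (1.17). *Map3k14*, of the same list, differed by -0.43 with epoxomicin by its brighter probe and by -1.20 by its other probe. Of 11 genes for TRAF and cIAP adaptors and their partners, *Traf6*, a ubiquitin ligase of Toll-like receptor signaling, was higher by 1.07 with MG132 and 1.35 with epoxomicin and differed by 0.69 with ONX0914. The remaining genes of that list stayed within 2-fold. Of 14 other negative regulators, *Tnip3*, which encodes an A20-binding protein, passed 2-fold with ONX0914 by its brighter probe (1.01) and differed by 0.69 with MG132 and 0.50 with epoxomicin. Its other probe passed with MG132 (1.26) and not with epoxomicin (0.82) or ONX0914 (0.97), so the probes of *Tnip3* disagreed on which inhibitor passed. Of 5 genes for the ubiquitin ligase that recognizes phosphorylated IκB, 0 passed with any inhibitor.

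NF-κB target genes, listed with earlier results of these data known, included larger differences from DMSO than any of the 9 genes showed. Of 28 listed symbols, 1 of them an older symbol of *Acod1*, 26 had a named probe and 22 were well above background on all arrays, while *Il1a*, *Cxcl1*, *Vcam1* and *Csf3* were so on none. At least 2-fold higher were 13 of these 22 (MG132), 12 (epoxomicin) and 8 (ONX0914), against 7.25%, 8.49% and 3.27% of all genes, and 1 was lower with MG132 and epoxomicin. The median difference of the 22 targets was 1.45 (MG132), 1.52 (epoxomicin) and 0.31 (ONX0914). Higher with all inhibitors were 8 of the 22 targets, against 272 of the 13462 genes with a value for each inhibitor. Among the 8 were *Il6* (3.98, 4.05 and 3.06), *Il1rn* (3.65, 4.24 and 2.47), *Ptgs2* (3.70, 3.71 and 2.13) and *Cxcl2* (3.75, 3.32 and 2.20). These encode a proinflammatory cytokine, the antagonist of the IL-1 receptor, cyclooxygenase-2 and a neutrophil chemokine. The DMSO signal of *Il1rn* was 18.5, near the lowest signal well above background on that array (14.7), so the size of its differences is uncertain. *Cd40* (2.47, 2.73 and 1.92) belonged to the same group, as did *Csf1* by its brightest probe (2.69, 2.92 and 1.68), whose other probes gave 0.73 and 0.55 with ONX0914. *Tnf*, in contrast, was 2.16-fold lower with MG132 (-1.11) and 2.58-fold lower with epoxomicin (-1.37), and it differed by -0.35 with ONX0914. *Il1b* was higher by 1.42 with MG132 and 2.07 with epoxomicin and differed by -0.05 with ONX0914.

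**Figure D5:**
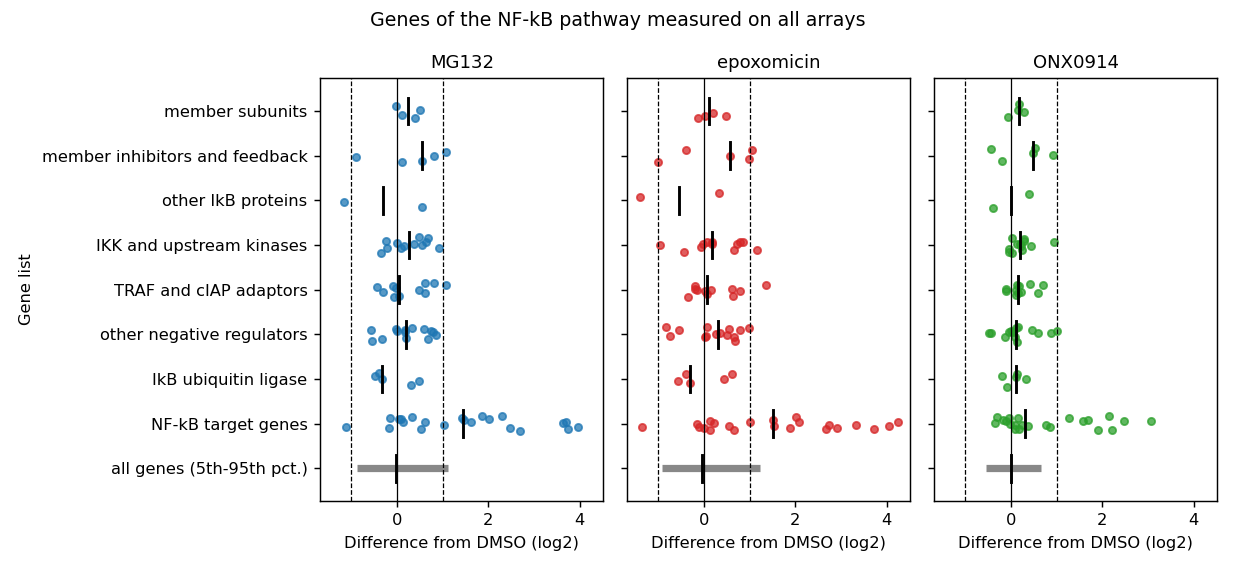
Log2 difference from DMSO for genes of the NF-κB pathway that were measured on all arrays, by list and inhibitor. Each point is 1 gene, short black lines are medians, dashed lines mark 2-fold, and the grey bar at the bottom runs from the 5th to the 95th percentile of all genes. Most points of the pathway lists lie between the dashed lines, and the target genes reach furthest to the right, with *Tnf* on the left with MG132 and epoxomicin.

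Genes whose differences lay nearest to those of *Bcl3* and *Nfkbie* were looked up among the 12728 genes measured on all arrays, by Euclidean distance over the 3 differences. Nearest to *Bcl3* were *Mlkl* (distance 0.0671), *Slc23a2* (0.0954) and *Rasa4* (0.107). *Mlkl*, which encodes the effector of necroptosis, differed by 1.05, 1.104 and 0.89 in the order used above. Among the genes nearest to *Nfkbie* were *Zfp41* (distance 0.0399) and *Gdpgp1* (0.0424). *Zfp41* differed by -0.90, -0.97 and -0.47. The likeness covers only 3 values that share the DMSO array.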

How the data were processed

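RNA of 4 cultures of J774.1 cells, 1 per condition, was hybridized to mouse Agilent arrays on 1 slide. Scans were read with Feature Extraction 10.7.1.1, per the submitters' processing notes. The authors deposited spot intensity values, background-subtracted within the array, and a table of log2 values centered per probe, which served as an alternative. The Methods name a human design, but the file headers name a mouse design. Of 43020 non-control spots per array, between 159 and 194 outlier spots were left out, and spots of a probe were averaged. Of 39429 probes, 26581 (67.4%) were named by matching transcript accessions to the RefSeq table of GRCm38.p6. The brightest probe represented a gene. A gene entered a comparison if well above background on at least 1 of its arrays, and a signal not well above background was replaced by a bound.

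The text names all 10 genes, the genes of a pathway list past 2-fold with all inhibitors (up to 6) and up to 2 others, and the 3 nearest genes of the highest and the lowest gene, of which 1 is not reported here. Genes and lists were chosen with earlier results of these data known. Promoter sequences were from RefSeq. The alternatives were normexp on the median spot intensity (offset 50), other scalings, probe rules, bounds and thresholds. Calculations used Python 3.11.15, numpy 2.4.6, pandas 2.3.3, matplotlib 3.10.9, R 4.3.3 and limma 3.58.1, and were tested on simulated data.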

Additional observations from a re-analysis of the deposited data

How the results depend on the processing

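No paired analysis was possible because each condition had 1 array, and leaving out an array leaves no value. The count of genes at least 2-fold lower with epoxomicin (1) became 0 under normexp, under a normexp fit without outlier spots that was chosen after seeing the data, without scaling, with *Hprt* as the only scaling and at 4-fold. The count higher with MG132 (1) became 0 with a shift to the median, without scaling and at 4-fold, and 2 with *Hprt*. That higher with epoxomicin (1) became 0 with the shift to the median and at 4-fold, and 2 without scaling and with *Hprt*. The count lower with MG132 (0) became 1 without scaling. The count higher with ONX0914 (0) became 1 with the authors' value table and with the processed signal in place of bounds, in both cases through *Rel*. Quantile normalization, the percentile over detected probes, the mean over probes and the filter on all arrays moved no count.

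Of 279 pairs of a difference and an alternative, 56 moved by at least 0.0867, which is the highest median SD between spots of a probe (0.0613) times the square root of 2. The pairs include alternatives that cannot change a gene with 1 probe. Of 28 differences, 6 changed sign in some setting, those of *Rela* with each inhibitor, *Nfkb2* with MG132 and epoxomicin and *Nfkbia* with MG132. The median of all genes shifted to -0.22, -0.23 and -0.12 under normexp (MG132, epoxomicin, ONX0914), to -0.12 with MG132 and epoxomicin under the shift to the median, to -0.21 with MG132 without scaling, and to 0.18 and 0.12 with *Hprt*. *Bcl3* stayed between 0.87 and 1.28 and *Nfkbie* between -1.08 and -0.42 over all settings. The cause of the shifts was not tested, and faint signals such as that of *Rel* limit any comparison.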
